A study of Mus musculus with 4 samples.

Results

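Immediate early genes are the genes that neurons switch on soon after they are stimulated. The 10 examined here were chosen by gene symbol among the 31053 genes counted: 7 transcription factor genes (*Fos*, *Fosb*, *Junb*, *Egr1*, *Npas4*, *Nr4a1* and *Nr4a3*) and 3 genes of synaptic or secreted proteins (*Arc*, *Homer1* and *Bdnf*). Each symbol named 1 gene, and all 10 had UMIs in every library. The data were single-nucleus RNA-seq counts from brains of untreated female C57/BL6 mice at 2 months of age. There were 2 WT and 2 Csf1r+/- libraries, each from the brain of 1 mouse, where Csf1r+/- mice carry 1 disrupted allele of the CSF-1 receptor gene and WT mice carry none. Mice of both genotypes were perfused, and nuclei were isolated without detergent and depleted of myelin with beads, steps that all libraries share. 1 further library per genotype was not analysed here. The comparisons ask how these genes are distributed over brain cells, and whether they differ between genotypes beyond the difference between 2 mice of the same genotype.

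Synaptic input raises calcium in a neuron and activates kinases, and these act on factors such as CREB, SRF and MEF2 that already sit at immediate early genes, so that transcription starts without new protein. FOS, FOSB and JUNB are subunits of the AP-1 complex, EGR1 is a zinc finger factor, NPAS4 is a bHLH-PAS factor that is selective for calcium signals, and NR4A1 and NR4A3 are orphan nuclear receptors. ARC acts on AMPA receptor endocytosis at synapses, HOMER1 links metabotropic glutamate receptors to their partners in the postsynaptic density, and BDNF is a neurotrophin that acts through the receptor TrkB. The RNAs of most of them are short-lived.

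The promoters of 5 members on which the results turn are shown, with the 250 bases before the RefSeq transcription start (GRCm38.p6) written 5′ to 3′ on the strand of the gene. *Fos* and *Npas4* were highest in WT replicate 1 in excitatory neurons, and *Nr4a1*, *Nr4a3* and *Homer1* were highest in Csf1r+/- replicate 1. The windows are chr12:85473640-85473889 (+ strand) for *Fos*, chr19:4989972-4990221 (- strand) for *Npas4*, chr15:101266596-101266845 (+ strand) for *Nr4a1*, chr4:48045055-48045304 (+ strand) for *Nr4a3* and chr13:93303507-93303756 (+ strand) for *Homer1*. Capitals mark TGACG, the core of the cAMP response element (CRE) that CREB recognizes, on either strand (CGTCA on the other), and in *Fos* also a TATA box.
Fos: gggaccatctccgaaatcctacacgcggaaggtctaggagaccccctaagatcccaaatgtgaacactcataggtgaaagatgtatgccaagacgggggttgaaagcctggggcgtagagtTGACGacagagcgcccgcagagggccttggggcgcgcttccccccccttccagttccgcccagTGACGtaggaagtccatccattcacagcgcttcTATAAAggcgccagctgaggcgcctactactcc
Npas4: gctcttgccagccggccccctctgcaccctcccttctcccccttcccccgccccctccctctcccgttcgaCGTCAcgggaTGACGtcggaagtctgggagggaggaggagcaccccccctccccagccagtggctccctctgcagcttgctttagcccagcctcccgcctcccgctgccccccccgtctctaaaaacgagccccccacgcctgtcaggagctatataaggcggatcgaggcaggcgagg
Nr4a1: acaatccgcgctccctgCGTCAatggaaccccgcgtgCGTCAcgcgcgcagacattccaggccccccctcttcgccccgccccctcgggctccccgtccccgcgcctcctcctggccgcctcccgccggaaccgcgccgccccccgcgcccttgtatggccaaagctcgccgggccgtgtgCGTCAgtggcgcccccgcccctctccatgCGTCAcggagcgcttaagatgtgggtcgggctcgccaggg
Nr4a3: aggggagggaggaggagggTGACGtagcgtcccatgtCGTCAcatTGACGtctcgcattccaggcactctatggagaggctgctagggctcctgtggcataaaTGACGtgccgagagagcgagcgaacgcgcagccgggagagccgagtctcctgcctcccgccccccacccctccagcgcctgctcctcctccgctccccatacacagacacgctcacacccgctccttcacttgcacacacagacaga
Homer1: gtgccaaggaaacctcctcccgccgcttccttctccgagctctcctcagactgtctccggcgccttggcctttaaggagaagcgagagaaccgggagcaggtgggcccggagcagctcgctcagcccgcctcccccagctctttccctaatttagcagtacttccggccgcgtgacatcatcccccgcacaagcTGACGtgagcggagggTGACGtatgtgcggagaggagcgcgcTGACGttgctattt
The 8 members other than *Arc* and *Egr1* had 15 such windows. TGACG was found on either strand in 8 of the 15 windows, 1 for each of the 8 genes, with 7 windows searched for *Bdnf* and 2 for *Homer1*, compared with 17.9% of all 32536 distinct windows of this length. The windows printed hold 2 copies in *Fos*, 2 in *Npas4*, 4 in *Nr4a1*, 4 in *Nr4a3* and 3 in *Homer1*. No window of these 8 members held the full palindrome TGACGTCA, which 1.56% of all windows held, or a CArG box, the SRF site, which 1.48% held. The promoters of *Arc* and *Egr1* were not searched. TATAAA, searched on the strand of the gene alone, stood 33 to 28 bases before the start of *Fos* and was in 7.55% of all windows. These are matches of letters in short windows and do not show binding.

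Of 16415 and 16301 WT and 9905 and 11369 Csf1r+/- nuclei, 52132 were kept in all, with 88097109 to 111488169 UMIs per library. The median was 5490 and 4636 UMIs per nucleus in WT replicates 1 and 2 and 7454 and 6656 in Csf1r+/- replicates 1 and 2. WT replicate 2 stood apart with 0.799% mitochondrial UMIs over all its nuclei before filtering, against 0.188% to 0.336% in the others. It also had 12.9% of kept nuclei left without a class name, against 6.19% to 9.14%. Pairs of libraries shared 35 to 75 cell barcodes. As a check of the genotype, *Csf1r* in microglia was 908 and 917 CPM in the WT libraries and 611 and 597 in the Csf1r+/- libraries (109 to 197 UMIs each). Nuclei fell into excitatory neurons (5739 to 9950 per library, marked by *Slc17a7*), inhibitory neurons (2276 to 3946, marked by *Gad1*), oligodendrocytes, oligodendrocyte precursors, microglia, endothelial cells and a *Vtn* and *Atp13a5* vascular class. The neurons fell into 37 named types, of which the 32 with at least 20 nuclei in each library (19 excitatory and 13 inhibitory) are described here and 5 are not, and every name stands for nuclei like that type by its markers. No cluster met the rule for astrocytes. The 10 genes were left out of the clustering. Levels are given as CPM, the UMIs of a gene per 1000000 UMIs of all genes in the same class and library. At 3 UMIs, the upper limit that a count of 0 allows, the level was at most 0.0576 CPM in excitatory and 0.209 CPM in inhibitory neurons, a limit that covers counting error only.

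Excitatory neurons held 71.2% (*Fos*) to 83.4% (*Arc*) of the UMIs of these genes, and inhibitory neurons 6.54% (*Arc*) to 18.3% (*Fos*). Of all UMIs, excitatory neurons held 68.8% and inhibitory neurons 18.4%, so that the *Fos* shares were close to those of RNA in general. The AP-1 genes differed strongly between mice of one genotype. *Fos* in excitatory neurons was 20.3 CPM in WT replicate 1 and 4.51 in WT replicate 2, and 8.82 and 4.65 in Csf1r+/- replicates 1 and 2. *Fosb* was 5.44 and 1.46 CPM in the WT and 3.18 and 1.64 in the Csf1r+/- libraries. *Junb* was 28 and 18.5 CPM in the WT and 14.4 and 18.9 in the Csf1r+/- libraries. WT replicate 1 was thus the highest for all 3, and for *Fos* and *Fosb* the lowest library was the other WT mouse.

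*Egr1*, a factor of synaptic plasticity, was 53.4 and 25.8 CPM in the WT and 30.7 and 50.4 in the Csf1r+/- libraries, so that 1 mouse of each genotype was high. *Npas4* had the same order, with 33.2 and 11.5 CPM in WT and 15.1 and 24.6 in Csf1r+/- excitatory neurons. The nuclear receptor genes followed another order. *Nr4a1* was 49.7 and 40.2 CPM in WT and 76.9 and 39.2 in Csf1r+/- libraries, and *Nr4a3* was 19.4 and 12.5 in WT and 30.7 and 8.77 in Csf1r+/- libraries. Here Csf1r+/- replicate 1 was the highest and Csf1r+/- replicate 2 the lowest.

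Among the effectors, *Homer1*, whose short activity-induced form and long forms were counted together, was 337 and 445 CPM in WT and 692 and 341 in Csf1r+/- excitatory neurons. *Arc* was 25 and 17.3 CPM in WT and 25.9 and 16.7 in Csf1r+/- libraries, with replicate 1 high in both genotypes. *Bdnf* was 28.6 and 38.6 CPM in WT and 37.6 and 26.3 in Csf1r+/- libraries. By CPM, *Bdnf* was the only member to be highest in WT replicate 2, and no member was highest in Csf1r+/- replicate 2. The ranges of the genotypes overlapped for each of the 10 members.

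In inhibitory neurons the leading library was the same for each member but *Arc* and *Bdnf*. *Fos* was 20.3, 3.71, 9.15 and 4.54 CPM in WT replicates 1 and 2 and Csf1r+/- replicates 1 and 2, nearly the values of excitatory neurons. *Npas4* was 18.9, 6.56, 9.59 and 10.6 CPM and *Egr1* 34.4, 16.7, 24.8 and 19.3 CPM in the same order of libraries. WT replicate 1 was the highest for 6 members, the 5 that it led in excitatory neurons and *Arc*. Csf1r+/- replicate 1 was the highest for the other 4, with *Nr4a1* at 23.5, 20.3, 36.6 and 16.3 CPM, *Nr4a3* at 9.16, 4.36, 14.8 and 3.21 CPM, *Homer1* at 150, 195, 216 and 146 CPM and *Bdnf* at 10.9, 13, 14.3 and 10.5 CPM. The genotypes again overlapped for all 10. No member was apart by genotype in either class, while 27.2% of genes in excitatory and 25.6% in inhibitory neurons were.

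**Figure D1:**
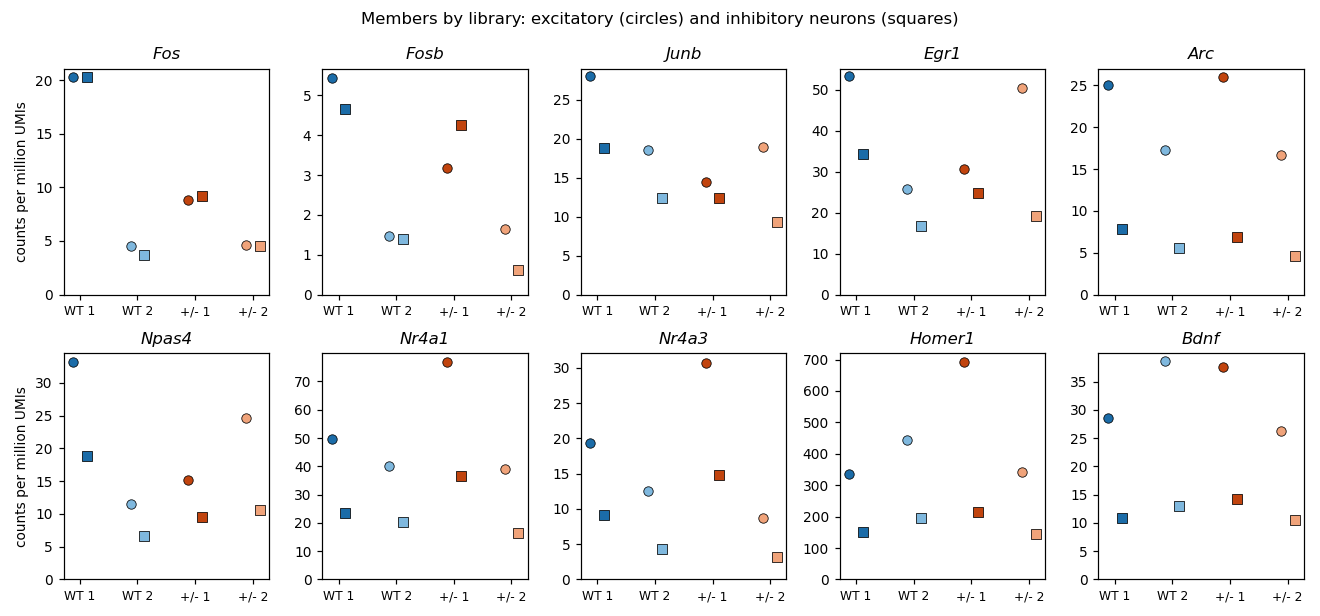
CPM (vertical axis, from 0) of the 10 members in each of the 4 libraries (horizontal axis; +/- stands for Csf1r+/-), with circles for excitatory and squares for inhibitory neurons. *Fos* is near 20.3 in WT replicate 1 and under 10 in the other 3 libraries in both classes, whereas *Nr4a1* and *Nr4a3* are highest in Csf1r+/- replicate 1.

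The library differences recurred within neuron types for most members. In types with at least 20 UMIs of the gene, *Fos* was highest in WT replicate 1 in 25 of 26 types, *Fosb* in 13 of 14, *Egr1* in 24 of 30, *Npas4* in 23 of 27 and *Junb* in 22 of 28. *Arc* was highest there in 16 of 24 types and in 10 of 16 excitatory types. In excitatory neurons as a class, Csf1r+/- replicate 1 led it narrowly, at 25.9 against 25 CPM in WT replicate 1. Csf1r+/- replicate 1 was the highest library for *Nr4a1* in 24 of 31 types, for *Nr4a3* in 23 of 29 and for *Homer1* in 27 of 32. *Bdnf* had no such leader, with WT replicate 2 highest in 12 of 28 types and the other libraries in 4, 7 and 5. The types of 1 library come from the same mouse and are not replicates. Depth and RNA quality also differed between libraries: the median UMI count of excitatory nuclei was 6467 and 5651 in WT and 9078 and 7429 in Csf1r+/- libraries. The part of depth and of mitochondrial UMIs in these differences was not tested, apart from the shares at equal depth given below.

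**Figure D2:**
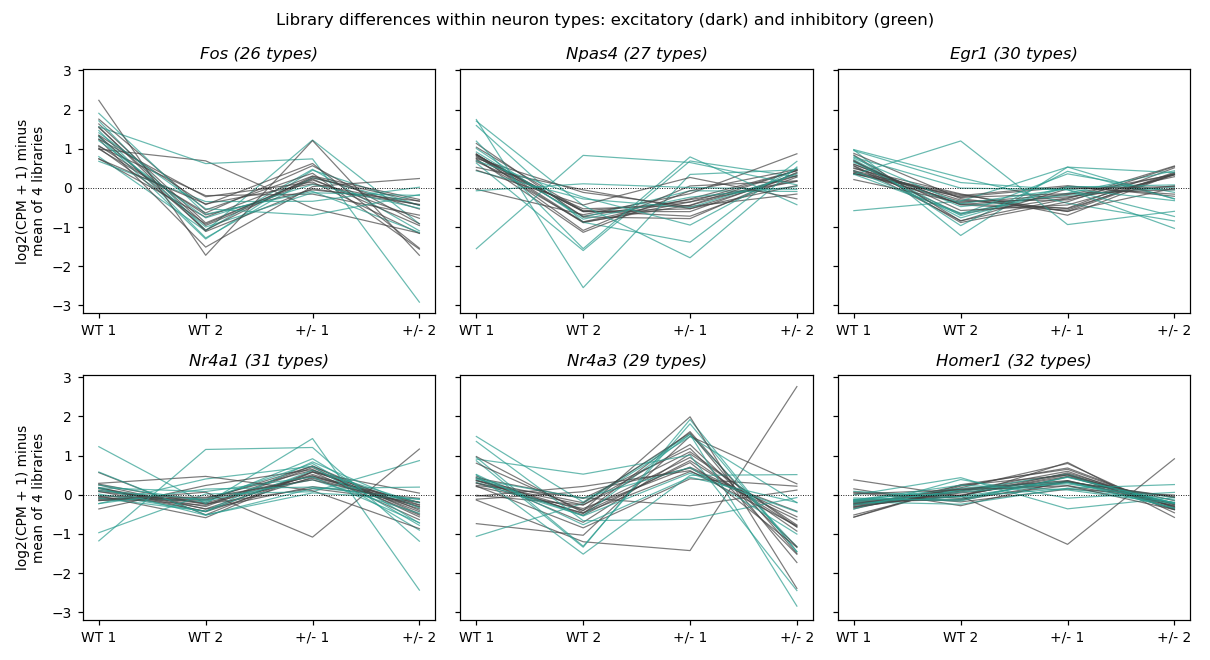
Each line is 1 neuron type, dark for excitatory and green for inhibitory, and shows log2(CPM + 1) of a member in each library minus the mean of the 4 libraries. *Fos* is above its mean in WT replicate 1 in almost every type, and *Nr4a1*, *Nr4a3* and *Homer1* are mostly above it in Csf1r+/- replicate 1.

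For some members these gaps within a genotype were large beside those of other genes. On the log2(CPM + 1) scale after TMM scaling, WT replicate 1 exceeded WT replicate 2 by 2.04 for *Fos* in excitatory neurons, a gap reached by 0.0199% of the 15095 genes with at least 200 UMIs, and by 2.24 in inhibitory neurons, reached by 0.00798% of 12536 genes. For *Npas4* the gap was 1.56 (0.192% of genes) and for *Egr1* 1.13 (0.729%) in excitatory neurons. The median absolute gap between the WT libraries was 0.181. Csf1r+/- replicate 1 exceeded replicate 2 by 1.73 for *Nr4a3* (0.0464% of genes), by 1.06 for *Homer1* (0.344%) and by 0.99 for *Nr4a1* (0.457%), where the median absolute gap was 0.136. In inhibitory neurons the *Nr4a3* gap was 1.91 (0.016%). Other gaps were ordinary. In excitatory neurons the WT gap was reached by 31.1% of genes for *Homer1*, 28.3% for *Bdnf* and 17.2% for *Nr4a1*. The Csf1r+/- gap was reached by 15.4% for *Junb*. In inhibitory neurons the WT gap of *Bdnf* was reached by 56.9% and the Csf1r+/- gap of *Npas4* by 50.8%. For 10 of 10 members in excitatory and 9 of 9 in inhibitory neurons (*Fosb* had under 200 UMIs), the larger gap within a genotype exceeded the difference between the genotype means. The same held for 86.4% and 86.6% of all genes, so that this count was near that of genes in general.

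With 2 libraries per genotype, no member passed a test of genotype in either neuron class. edgeR's quasi-likelihood test on summed counts called 0 of 10 members in excitatory neurons at the study's threshold of an unadjusted p under 0.01, 0 at p under 0.05 and 0 at a Benjamini-Hochberg adjusted p under 0.05. Of all 20285 genes, 0.394% were called at p under 0.01 and 0.0% after adjustment. In inhibitory neurons the counts of members were also 0, 0 and 0, against 0.4% of 17746 genes at p under 0.01 and 0.0% after adjustment. DESeq2 and edgeR's likelihood-ratio test called 0 members in both classes as well. The p-values measure the spread between these libraries, and an exact permutation test of 2 against 2 libraries could not go below p = 0.333.

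The largest estimates had wide errors. As log2 of Csf1r+/- over WT in excitatory neurons, *Fos* was -0.86 ± 0.65 (SE), *Fosb* -0.50 ± 0.61 and *Junb* -0.44 ± 0.25. *Homer1* was 0.48 ± 0.31, *Nr4a1* 0.43 ± 0.31 and *Nr4a3* 0.36 ± 0.53. *Egr1*, *Arc*, *Npas4* and *Bdnf* lay between -0.14 and 0.07. In inhibitory neurons *Junb* had the smallest p of the 10, at -0.51 ± 0.25, and *Fos* was at -0.81 ± 0.63. None of these estimates differed from 0 beyond the spread between libraries (edgeR with Benjamini-Hochberg adjustment, adjusted p = 1.0 for each of the 10 members in both classes).

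Leaving out 1 library decided the sign for every member except *Junb*. In each of these fits 1 genotype had a single library, so that the spread came from the 2 libraries of the other genotype alone and the single library was assumed to vary like them. Without WT replicate 1, *Fos* in excitatory neurons went to 0.70, *Fosb* to 0.85 and *Npas4* to 0.91, of which *Npas4* passed p under 0.01, as did 2.72% of all genes. Without WT replicate 2, *Fos* was -1.59, *Fosb* -1.18, *Junb* -0.76 and *Npas4* -0.75, and these 4 passed p under 0.01, as did 1.76% of all genes. Without Csf1r+/- replicate 2, *Nr4a1* was 0.85, *Nr4a3* 1.01 and *Homer1* 0.91, and these 3 passed, against 0.377% of all genes. Without Csf1r+/- replicate 1 the same 3 genes were at -0.16, -0.83 and -0.15 and none passed, against 0.344% of all genes. In inhibitory neurons 4 members passed without WT replicate 2 (*Fos* at -1.56), 1 without Csf1r+/- replicate 1 (*Fosb* at -2.26) and 2 without Csf1r+/- replicate 2 (*Nr4a3* at 1.13), and 0 without WT replicate 1. Of all genes, 1.1%, 1.17%, 0.854% and 2.23% passed in these fits. Each call made on 3 libraries was absent with 4, and for *Npas4* in excitatory neurons the calls pointed in opposite directions.

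**Figure D3:**
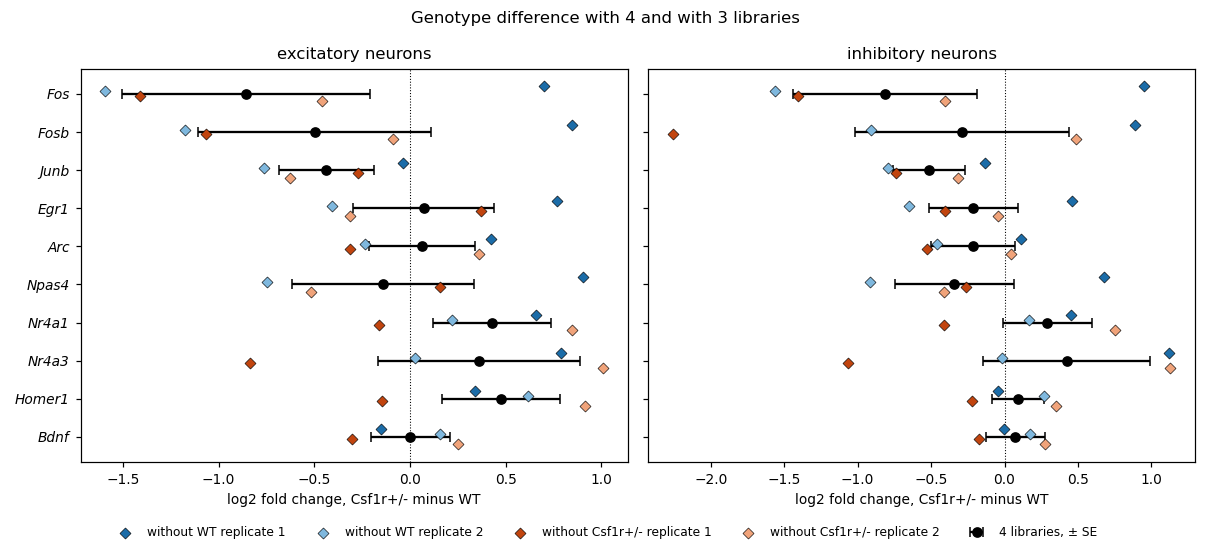
The log2 fold change of Csf1r+/- against WT (horizontal axis) for each member, with the black point and bar for the edgeR estimate ± SE from 4 libraries and diamonds for the estimates with 1 library left out. Diamonds lie on both sides of 0 for each member but *Junb*, whose estimates are all below 0.

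Excitatory neurons had higher levels than inhibitory neurons of the same libraries for 9 of 10 members at an adjusted p under 0.05 (edgeR, library as a block), and 0 were lower. Of 21025 genes, 23.3% were higher and 24.8% lower in excitatory neurons. The difference in log2 was largest for *Arc* (1.95 ± 0.07 SE), *Bdnf* (1.61 ± 0.05) and *Homer1* (1.5 ± 0.08), the 3 effectors. The nuclear receptor genes followed, at 1.40 ± 0.08 for *Nr4a3* and 1.28 ± 0.05 for *Nr4a1*, and *Npas4*, *Egr1* and *Junb* were at 1.06 ± 0.08, 0.91 ± 0.13 and 0.77 ± 0.10. *Fos* was only slightly higher, at 0.23 ± 0.07 (edgeR adjusted p = 0.0243), and *Fosb* was at 0.31 ± 0.19 (edgeR adjusted p = 0.217). The *Fos* call was lost with DESeq2 and with library totals alone in place of TMM scaling (0.04), where 26.2% rather than 48.5% of all called genes were on the excitatory side. No member passed the test of whether the genotype effect differed between the classes (edgeR interaction, 0 of 10 at an adjusted p under 0.05, against 0.0143% of genes, and 0 of 10 at p under 0.01, against 1.52%). *Homer1* had the smallest interaction p, 0.32 ± 0.13 in log2 (edgeR adjusted p = 0.867), and was the only member with a p under 0.05.

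Over the 32 neuron types the members fell into several patterns, given as a description since the types were made from the same nuclei. A cortical type marked by *Rorb* and *Boc* had the highest mean of *Egr1* (75.1 ± 28.1 CPM, SD, n = 4 libraries), *Npas4* (37.3 ± 18.5), *Nr4a1* (84.0 ± 33.6) and *Homer1* (647 ± 293). Layer 6 corticothalamic neurons were second for *Egr1* (67.7 CPM), *Npas4* (32.6) and *Homer1* (642) and led *Arc* at 44.5 ± 12.3 CPM, where the *Rorb* and *Boc* type was second at 36.6 ± 9.89. Layer 4 cortical neurons followed for *Arc* (26.9 CPM) and *Homer1* (610).

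*Fos* differed from the rest in that an inhibitory type led it. Vip interneurons, which mostly inhibit other interneurons, had 64.8 and 8.47 CPM in the WT and 26.9 and 8.40 CPM in the Csf1r+/- libraries, a mean of 27.2. The *Rorb* and *Boc* cortical type followed with 45.2, 7.03, 16.5 and 6.66 CPM. Drd2 striatal projection neurons were lowest with 6 UMIs in all. *Fosb* and *Junb* were both highest in an excitatory type marked by *Oprk1* and *Gnb4*, at 9.91 and 37.8 CPM, and *Fosb* had 0 UMIs in the *Sim1* and *Lhx1* type.

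*Nr4a3* and *Bdnf* had other leading types. *Nr4a3* was highest in CA1 type pyramidal neurons, at 60.1 and 48.1 CPM in the WT and 41.6 and 55.3 CPM in the Csf1r+/- libraries, so that the library order seen elsewhere did not hold there. It was second in layer 5 near-projecting neurons (41.8 CPM) and lowest in the *Htr2c* and *Syt2* subcortical GABA type (2.17 CPM). *Bdnf* was highest in the *Sim1* and *Lhx1* excitatory type at 80.7, 92.7, 81.4 and 74.9 CPM, followed by dentate granule neurons at 75.1 ± 18.9 CPM. Dentate granule neurons had the lowest levels of *Egr1* (5.96 CPM) and *Nr4a1* (10.8 CPM) among the 32 types. *Bdnf* was lowest in Drd2 striatal projection neurons (2.28 CPM), the type that, with 468 CPM of *Homer1*, was above every other inhibitory type for that gene.

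Neighbouring types were close in their means beside the spread of the libraries. Of the 31 steps between neighbours in the order of means, 31 were within 1 SD of the libraries for 9 members and 30 for *Homer1*. This SD includes library differences that recur over the types, so it cannot decide whether the order holds within a library, which was not tested. The leading type was the highest in 1 to 3 of the 4 libraries and among the top 3 in at least 3. It stayed the leading type on leaving out any single library except for *Fosb*, *Nr4a1* and *Homer1*.

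**Figure D4:**
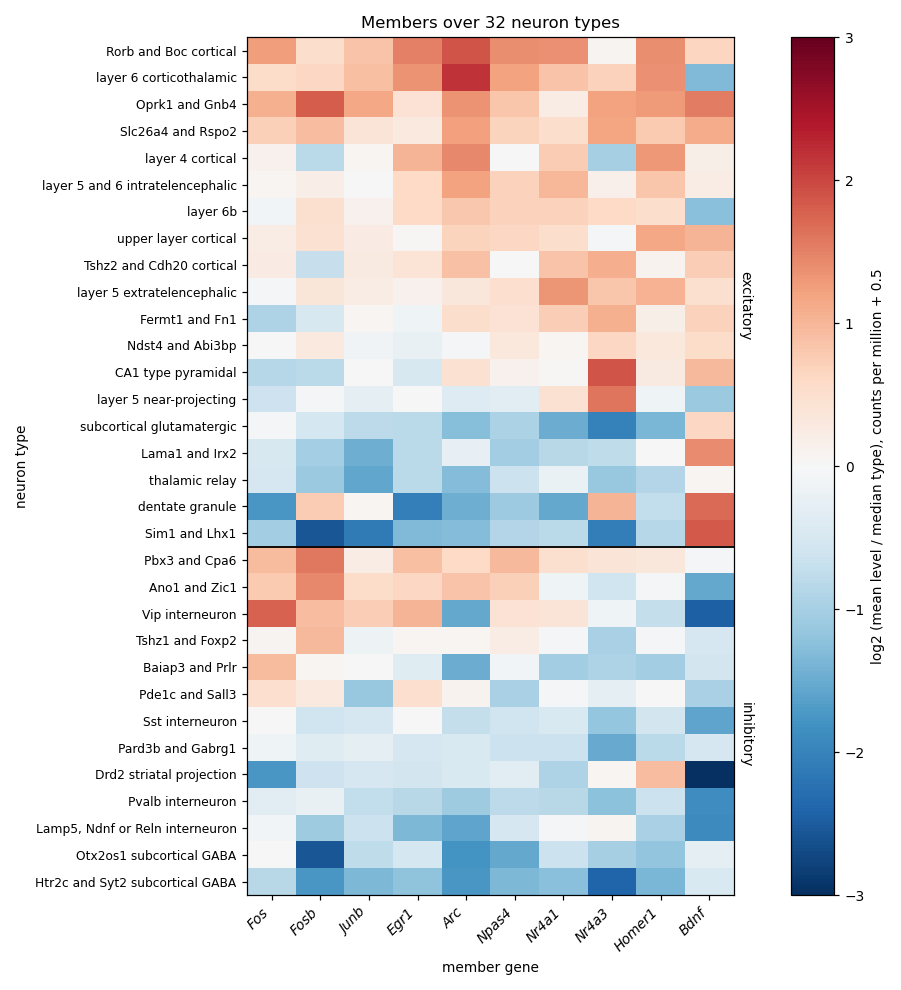
The mean CPM of each member (columns) in 32 neuron types (rows, excitatory above the line), as log2 of the level plus 0.5 over the median type plus 0.5. The *Rorb* and *Boc* and the layer 6 corticothalamic types are above the median type for *Egr1*, *Arc*, *Npas4* and *Homer1*, *Nr4a3* is highest in CA1 type pyramidal and *Bdnf* in *Sim1* and *Lhx1* neurons.

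Several members resembled each other over the types. Pearson's r of log2(CPM + 1) over the 32 type means, among 10915 genes with a mean of at least 5 CPM, was highest for *Arc* with *Ier5* (0.905), *Klf10* (0.903) and *Homer1* (0.899), and for *Homer1* with *Klf10* (0.902), *Arc* and *R3hdm1* (0.885). *Ier5* and *Klf10* are themselves primary response genes. *Junb* and *Npas4* were most like each other (0.819), with *Gm26599* (0.772) and *Dlg2* (0.749) next for *Junb* and *Arc* (0.802) and *Egr3* (0.799) next for *Npas4*. *Egr1* was most like *Nr4a1* (0.783), *Npas4* (0.782) and *Arc* (0.770), and *Fos* most like *Ufm1* (0.763), *Egr1* (0.736) and *Gnai1* (0.646). *Nr4a1* was most like *Ovol2* (0.864), *Gm34237* (0.798) and *Gm47715* (0.792), *Nr4a3* like *Jph1* (0.784), *Exoc6* (0.774) and *Zbtb18* (0.767), and *Bdnf* like *Mindy3* (0.775), *Banp* (0.760) and *Jdp2* (0.739). *Fosb* was under the level limit. These types share their libraries and depth, and the values are a description.

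Per nucleus, most members were seen in few cells. Each nucleus was thinned to 2000 UMIs, which left out 656 excitatory (2.11%) and 1313 inhibitory nuclei (10.5%) that had fewer. *Fos* had a UMI in 4.12% and 0.998% of WT and 1.6% and 0.808% of Csf1r+/- excitatory nuclei. *Npas4* was seen in 5.46% and 2.17% of WT and 2.80% and 4.30% of Csf1r+/- nuclei. For *Npas4* the order of the libraries at equal depth was that of the CPM, and for *Fos* the 2 lowest libraries changed places. The leading library changed for *Egr1*, with 9.58%, 5.52%, 6.48% and 10.1% of nuclei in WT replicates 1 and 2 and Csf1r+/- replicates 1 and 2, so that Csf1r+/- replicate 2 led by share and WT replicate 1 by CPM. It also changed for *Arc*, with 5.24%, 3.45%, 4.82% and 3.46%, where WT replicate 1 led by share and Csf1r+/- replicate 1 by CPM.

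*Nr4a1* was seen in 9.66%, 7.27%, 13.7% and 7.84% and *Nr4a3* in 3.64%, 2.14%, 5.28% and 1.51% of excitatory nuclei of WT replicates 1 and 2 and Csf1r+/- replicates 1 and 2. *Homer1* was the most widely seen, in 42.1%, 48.3%, 57.6% and 44.0%. Without thinning, the *Fos* shares were 10.2%, 2.54%, 7.06% and 2.95% and the *Homer1* shares 72.9%, 73.9%, 85.3% and 78.4%. In oligodendrocytes the shares at 2000 UMIs were 0.416% for *Fos*, 0.937% for *Npas4*, 1.46% for *Nr4a1*, 0.520% for *Nr4a3* and 19.3% for *Homer1*. Their median depth was 1810 UMIs, against 6870 in excitatory and 4414 in inhibitory nuclei, and 59.3% of them were left out. The genotypes overlapped in the share of nuclei for each member in excitatory neurons (exact permutation p = 0.667 to 1). In the neuron classes only *Junb* in inhibitory neurons, at 3.07% and 2.44% in WT and 2.18% and 1.92% in Csf1r+/- libraries, had genotypes that did not overlap (exact permutation p = 0.333, the smallest possible). In the share expected at this depth, 27% of all genes did not overlap in inhibitory and 28.5% in excitatory neurons. Of the glial and vascular classes, *Junb*, *Egr1*, *Homer1* and *Bdnf* in oligodendrocytes and *Junb* in endothelial cells also did not overlap (exact permutation p = 0.333), where 34.2% and 36.5% of all genes did not. Apart from *Homer1*, these rested on 10 or fewer nuclei with a UMI per library.

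Some nuclei held several UMIs of a member. Excitatory nuclei with at least 3 *Npas4* UMIs numbered 573 (1.85%) and held 40.6% of its UMIs, with up to 14 in a nucleus. For *Fos* 194 nuclei (0.625%) held 26.6%, and for *Bdnf* 659 nuclei (2.12%) held 33.8%, with up to 26 in a nucleus. Nuclei with a single UMI held 49.4% of *Fos*, 50.6% of *Junb* and 55.0% of *Arc* UMIs. *Homer1* was widespread, with 3 or more UMIs in 13261 excitatory nuclei (42.7%). In thinned nuclei, 3 or more of the 7 transcription factor genes were seen together in 269 excitatory nuclei of WT replicate 1 (2.79%), 35 of WT replicate 2 (0.466%), 53 of Csf1r+/- replicate 1 (0.933%) and 58 of Csf1r+/- replicate 2 (0.768%). The inhibitory counts were 57 (1.73%), 4 (0.115%), 23 (1.02%) and 8 (0.375%). WT replicate 1 thus had the largest share of such nuclei in both classes.

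Members were seen in the same nucleus more often than their separate shares within a type and library give. In excitatory neurons all 45 pairs had a ratio of observed to expected nuclei above 1, from 1.10 to 6.14 with a median of 1.87. *Fos* and *Fosb* were together in 35 nuclei where 5.70 were expected (ratio 6.14), and *Fosb* and *Npas4* in 55 where 9.07 were expected (6.07). WT replicate 1 alone held 25 and 34 of these nuclei. *Fos* and *Npas4* were together in 125 nuclei against 34.7 expected. By library the counts were 95, 7, 12 and 11 nuclei in WT replicates 1 and 2 and Csf1r+/- replicates 1 and 2. The counts expected were 26.7, 1.76, 3.21 and 3.05, which gave ratios of 3.56, 3.97, 3.74 and 3.60. Outside WT replicate 1 these ratios rest on few nuclei. *Fos* and *Junb* gave 3.64 and *Junb* and *Npas4* 3.45. Pairs with *Homer1* were lowest, at 1.10 to 1.33, and *Egr1* and *Bdnf* gave 1.2. Of the 28 pairs with at least 5 nuclei expected in each library, 25 were above 1 in each. In inhibitory neurons 40 of 45 pairs were above 1, with *Fosb* and *Npas4* at 8.63 from 22 nuclei and *Fos* and *Npas4* at 5.36 from 38, but of the 6 pairs with at least 5 nuclei expected in each library only 2 were above 1 in each. In excitatory neurons some pairs were below 1 in a library. In Csf1r+/- replicate 2, *Npas4* and *Nr4a3* were at 0.448 and *Nr4a1* and *Nr4a3* at 0.917. *Fosb* and *Nr4a1* were at 0.895 there and *Fosb* and *Nr4a3* at 0. For these pairs 4.46, 8.73, 2.24 and 0.371 nuclei were expected. *Junb* and *Homer1* were at 0.960 in that library, where 147 were expected. In WT replicate 2, *Arc* and *Nr4a3* were at 0.656 (6.09 expected) and *Junb* and *Bdnf* at 0.902 (18.9 expected). These ratios were not computed for other genes, and no test was made.

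**Figure D5:**
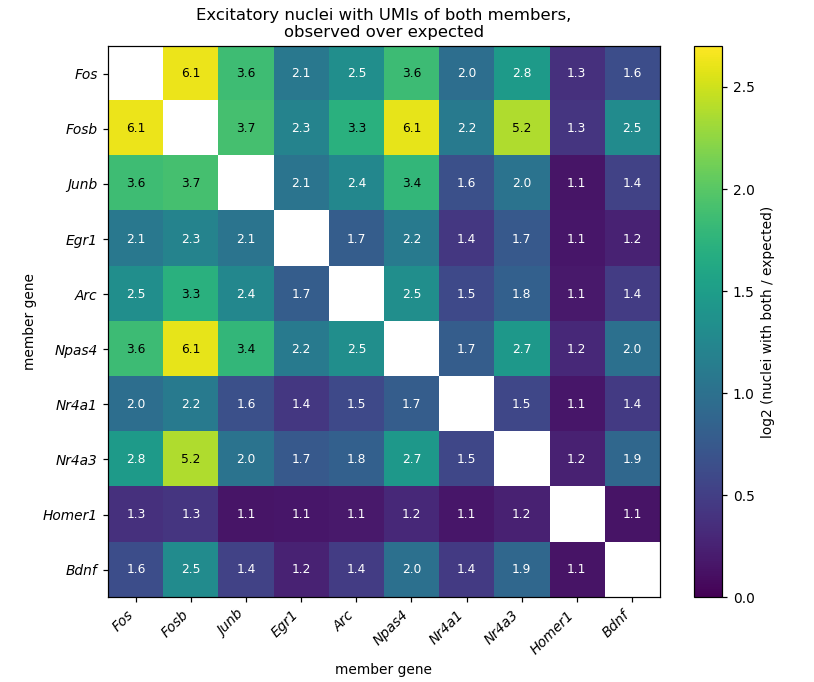
The number in each cell is the count of excitatory nuclei with UMIs of both members at 2000 UMIs per nucleus over the count expected from their separate shares within each type and library, and the color is its log2. The AP-1 genes and *Npas4* form the bright block, up to 6.14, and *Homer1* pairs are near 1.

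In glia and vascular cells the members had few UMIs, and their levels were set beside neuronal reference transcripts counted in the same nuclei. In oligodendrocytes the members were at 18.2% (*Nr4a1*) to 44.5% (*Arc*) of their excitatory CPM. Of 10 neuronal reference transcripts, the median in oligodendrocytes was 19.3% of the excitatory level, with *Snap25* at 20.5% and *Syt1* at 17.6%. The references ranged up to 880% in oligodendrocytes (*Erbb4*), and up to 625% in microglia, 298% in endothelial cells and 113% in the *Vtn* and *Atp13a5* class (*Gad1*). Both genes mark inhibitory neurons, so these are percentages of a low excitatory level (231 CPM for *Erbb4* and 4.29 for *Gad1*). *Homer1* was at 24.6% in microglia and 21.4% in endothelial cells, where the reference medians were 22.3% and 20.2%. In endothelial cells *Nr4a1* (46.7%, 17 UMIs), *Arc* (46.1%, 7 UMIs) and *Egr1* (44.2%, 13 UMIs) were above the median, and in the *Vtn* and *Atp13a5* class *Fosb* (156%, 2 UMIs), *Nr4a1* (51.8%, 11 UMIs) and *Egr1* (40.8%, 7 UMIs) were above its median of 9.20%. *Nr4a3* had 0 UMIs in microglia, and *Arc* and *Nr4a3* had 0 in the *Vtn* and *Atp13a5* vascular class.

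Among the members, *Junb* was furthest above the reference medians in microglia, endothelial cells and the *Vtn* and *Atp13a5* class. It had 24 UMIs in microglia (136% of the excitatory level), 36 in endothelial cells (249%) and 16 in the *Vtn* and *Atp13a5* class (189%). The reference medians were 22.3%, 20.2% and 9.20%. The single reference *Gad1*, with its low excitatory level, was above *Junb* in microglia (625%, 23 UMIs) and in endothelial cells (298%, 9 UMIs). In endothelial cells *Junb* was 35.1 and 105 CPM in the WT and 47.0 and 42.9 in the Csf1r+/- libraries. Each was above the highest excitatory library (28 CPM). Oligodendrocyte precursors had 13 to 130 nuclei per library and 6 *Junb* UMIs, too few for a test.

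Of the 12 pairs of a member and a glial or vascular class with at least 20 UMIs, 1 passed p under 0.01 by genotype, 2 passed p under 0.05 and 0 passed after adjustment (edgeR), compared with 2.71% of all gene and class pairs at p under 0.01 and 0.653% after adjustment. The 1 was *Junb* in oligodendrocytes, with 15 and 14 UMIs in WT and 1 and 1 in Csf1r+/- libraries (17.6 and 5.84 against 0.905 and 1.32 CPM), a log2 of -3.08 ± 0.96 (edgeR adjusted p = 0.903), where 1.02% of the genes tested in oligodendrocytes passed p under 0.01. The *Junb* pair reached the limit of 20 UMIs only through its WT counts. It fell under that limit without either WT library and was not fitted there. *Egr1* in oligodendrocytes had 32, 28, 2 and 9 UMIs and a log2 of -1.78 ± 0.76 (edgeR adjusted p = 0.912). The *Egr1* pair also reached the limit of 20 UMIs only through its WT counts. The *Junb* call was lost with DESeq2, with at least 1000 UMIs per nucleus, without nuclei of high Scrublet score and without either Csf1r+/- library, where the log2 was -2.88 and -3.30. Without WT replicate 1 or 2 or Csf1r+/- replicate 1 or 2, the log2 of *Egr1* in oligodendrocytes was -0.86, -2.61, -0.89 and -3.46. That of *Npas4* was 2.26, -1.02, 0.61 and -0.16 in the same order. These fits leave 1 genotype with a single library, so only the log2 is given. The neuronal references in the same nuclei were higher in WT replicate 1, with *Snap25* at 34.2% of the excitatory level against 12.2% to 20.2% in the other libraries, and their part in the result was not tested.

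Within the 32 neuron types, 269 pairs of a member and a type were tested for genotype, of which 111 were higher and 158 lower in Csf1r+/-. At p under 0.01 there were 3, at p under 0.05 there were 21 (3.36% of all gene and type pairs passed it), and after adjustment there were 0, with a smallest adjusted p of 0.991 (edgeR). The share of all gene and type pairs called was 0.663% at p under 0.01 and 0.00724% after adjustment. The first of the 3 was *Nr4a3*, higher in the *Fermt1* and *Fn1* excitatory type, with 10 and 7 UMIs in WT and 25 and 21 in Csf1r+/- libraries. Its log2 was 1.83 ± 0.49, where 0.571% of the genes tested in that type passed p under 0.01. The pair reached the limit of 20 UMIs only through its Csf1r+/- counts. The *Fermt1* and *Fn1* type had 70 and 81 WT and 29 and 67 Csf1r+/- nuclei, and 33.2% of its nuclei had a high Scrublet score. *Fos* was lower in the *Oprk1* and *Gnb4* type, with 28.1 and 22.6 CPM in WT and 9.20 and 5.57 in Csf1r+/- libraries (log2 -1.81 ± 0.47, against 0.27% of genes passing in that type). That type had 185 and 114 WT and 43 and 73 Csf1r+/- nuclei, so that its Csf1r+/- levels rest on few *Fos* UMIs. Its *Fos* pair reached the limit of 20 UMIs only through its WT counts. *Egr1* was lower in the *Htr2c* and *Syt2* subcortical GABA type, with 61 and 23 UMIs in WT and 18 and 11 in Csf1r+/- libraries (log2 -1.26 ± 0.42, against 0.703% of genes). The member found most often at p under 0.05 was *Junb*, lower in 8 types, among them layer 6b (log2 -0.75 ± 0.28) and the *Rorb* and *Boc* cortical type (log2 -0.65 ± 0.27). All types come from the same 4 mice, so these 8 are not independent of each other. WT replicate 1 had the highest *Junb* in 22 of the 28 types with at least 20 UMIs. *Junb* passed p under 0.05 in neither neuron class. DESeq2 left 1 of the 3 calls at p under 0.01, and leaving out WT replicate 1 or 2 or Csf1r+/- replicate 1 or 2 gave 13, 48, 12 and 18, where 1.96%, 1.34%, 0.987% and 0.719% of all gene and type pairs passed.

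Other genes of the response were taken as lists. Of 17 primary response transcription factors 16 were tested in excitatory neurons, with 7 higher and 9 lower in Csf1r+/- and a median log2 of -0.14, against a median of 0.00087 over all genes. The 17 primary response signal regulators had 8 higher and 9 lower (median -0.0082), the 15 secondary response effectors 5 and 10 (-0.10) and the 24 upstream regulators 15 and 9 (0.046). The 11 heat shock and tissue handling genes had 3 higher and 8 lower (-0.29). None of these lists held a gene past p under 0.01 or past adjustment, in excitatory or in inhibitory neurons. In inhibitory neurons the counts higher and lower were 8 and 9, 4 and 13, 5 and 10, 12 and 12 and 4 and 6 in the same order of lists. The smallest p in each list in excitatory neurons belonged to *Jun* (log2 -0.43 ± 0.26), the partner of FOS in AP-1, *Rgs2* (-0.45 ± 0.23), *Sst* (-1.04 ± 0.31), the MAP kinase gene *Mapk3* (-0.78 ± 0.24) and the co-chaperone gene *Bag3* (-0.83 ± 0.42). *Sst* marks an interneuron type and was 1.74 to 5.17 CPM in excitatory against 69.6 to 141 CPM in inhibitory neurons.

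The next in these lists had larger p-values within their list. Among the transcription factors these were *Maff* (log2 -0.58), *Klf2* (-0.79) and *Egr4* (-0.58), among signal regulators *Gadd45g* (-0.53), *Pim1* (-0.49) and *Gadd45b* (-0.52), and among effectors *Nrn1* (0.25), *Cartpt* (-0.66) and *Ptgs2* (-0.32). Among upstream regulators these were *Ntrk2*, the BDNF receptor gene (0.31), *Camk2a* (0.19) and *Cacna1c* (-0.16), and among heat shock genes *Hsp90aa1* (-0.31), *Hspb1* (-0.68) and *Hspa1b* (-0.65). Among the 10 neuronal reference transcripts, 7 were higher and 3 lower, and *Erbb4* was the only gene past p under 0.01 (log2 -0.54 ± 0.14, edgeR adjusted p = 1.0), with *Gad1* at -1.04, *Camk2a* at 0.19 and *Syt1* at 0.21. Both *Erbb4* and *Gad1* mark inhibitory neurons.

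The leading library varied with the list. It was taken in excitatory neurons after TMM scaling. The 16 transcription factors were highest in WT replicates 1 and 2 and Csf1r+/- replicates 1 and 2 for 5, 4, 7 and 0 genes. The signal regulators were highest for 6, 2, 9 and 0 genes. The later effectors were highest for 1, 8, 5 and 1 genes, with WT replicate 2 in front. The upstream regulators led in 8, 3, 8 and 5 and the heat shock genes in 3, 4, 4 and 0. Over all genes on the same scale, the shares were 25.1%, 29.1%, 24.6% and 21.2%. By CPM the leading library differed for some of the listed genes. In excitatory neurons Csf1r+/- replicate 2 led none of the primary response or heat shock genes tested, on this scale or by CPM. By CPM it also led no member.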

How the data were processed

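Nuclei of 4 brains were profiled with 10x 3′ gene expression libraries. The authors aligned reads with Cell Ranger to mm10, and the deposited matrices hold whole-number UMI counts per gene and nucleus. A nucleus was kept if it had 500 to 50000 UMIs, over 200 genes and less than 5% of UMIs from mitochondrial genes. They were clustered with scanpy 1.11.5 and Leiden (3000 variable genes, 30 components, 20 neighbours, resolution 1), without the 10 members and the lists of activity and heat shock genes. Of these clusters, 5 whose markers fell in more than 1 list were divided further, a choice made after the markers were seen. Clusters were named from marker lists where at least 3 markers were in 10% or more of nuclei at 2-fold or more. Most other named types, such as *Oprk1* and *Gnb4* or *Sim1* and *Lhx1*, had no such list and were named by leading genes of their own. In all, 9.27% of nuclei stayed unnamed. Nuclei of high Scrublet score (5629) were kept, and an alternative left them out.

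Counts were summed per library and class or type, and genes with at least 20 UMIs were tested with edgeR 4.0.16 (quasi-likelihood, TMM scaling), with the study's threshold of p under 0.01 and Benjamini-Hochberg adjustment over all genes tested. The self-test ran on simulated counts. The SE was the log2 fold change over the root of F. Shares of nuclei were taken after thinning each nucleus to 2000 UMIs. DESeq2 1.42.0, other scalings and filters, left-out libraries and replicate blocks were alternatives. Replicate numbers were not used to pair the libraries, since the labels name no batch or litter. Deviations of same-numbered libraries correlated at 0.0726 in excitatory and 0.0628 in inhibitory neurons. The values were -0.305 in oligodendrocytes, -0.0148 in microglia and 0.290 in endothelial cells. Such correlations over genes cannot show whether same-numbered libraries shared a batch. The named genes were the 10 members, from each further list up to 4 genes with the smallest p in excitatory neurons, and the 3 genes most like each member over types. The members and lists were chosen with earlier results of these data known. With 2 libraries per genotype, each from 1 mouse, p-values measure the spread between these libraries.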

Additional observations from a re-analysis of the deposited data

How the results depend on the processing

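Leaving out 1 library moved most genotype results. The number of members past p under 0.01 then ran from 0 to 4 in excitatory and 0 to 4 in inhibitory neurons, from 0 to 1 in glial and vascular classes (0 to 1 after adjustment) and from 12 to 48 among neuron types (0 to 3 after adjustment), 0 to 1 members passed the interaction, and 9 to 13 of the 20 shares of nuclei did not overlap. In the same fits 0.344% to 2.72% of all genes passed p under 0.01 in excitatory neurons (0.394% with 4 libraries), 0.854% to 2.23% in inhibitory neurons (0.4%) and 0.719% to 1.96% of all gene and type pairs (0.663%). For the shares of nuclei, a genotype left with a single library overlaps only where that library lies within the range of the other genotype. The share of all genes that did not overlap was not computed with a library left out. The count of 9 to 13 shares is therefore no result about the members. The same holds for the counts for the interaction, in glial and vascular classes and after adjustment, beside which no share of all genes is given. Each of these fits leaves 1 genotype with a single library, so they cannot show whether members pass more often than other genes. Of 80 fits for single members in the neuron classes with 1 library left out, 27 changed sign. In excitatory neurons the log2 differences ran from -1.59 to 0.70 (*Fos*), -1.18 to 0.85 (*Fosb*), -0.41 to 0.77 (*Egr1*), -0.31 to 0.42 (*Arc*), -0.75 to 0.91 (*Npas4*), -0.16 to 0.85 (*Nr4a1*), -0.83 to 1.01 (*Nr4a3*), -0.15 to 0.91 (*Homer1*) and -0.30 to 0.25 (*Bdnf*). In inhibitory neurons they ran from -1.56 to 0.95 (*Fos*), -2.26 to 0.89 (*Fosb*), -0.65 to 0.46 (*Egr1*), -0.53 to 0.11 (*Arc*), -0.91 to 0.68 (*Npas4*), -0.41 to 0.75 (*Nr4a1*), -1.07 to 1.13 (*Nr4a3*), -0.22 to 0.35 (*Homer1*) and -0.17 to 0.28 (*Bdnf*). Among the other 211 fits of the same members, 7 changed sign, all in *Npas4* and *Bdnf* in excitatory neurons, whose estimates were near 0. The replicate block moved *Npas4* to 0.037 and *Bdnf* to -0.016, and the block with crossed numbers, chosen after seeing the data, to 0.037 and -0.017. *Bdnf* was -0.073 with library totals alone, -0.033 with the 10% detection filter and -0.0090 at resolution 0.5. In glial and vascular classes the count of 1 became 0 with DESeq2, 0 with the 10% detection filter, 0 with at least 1000 UMIs per nucleus, 0 without nuclei of high Scrublet score, 2 with no filter on low counts, 2 with the replicate block and 2 with crossed numbers, and no value was obtained at resolution 0.5. Among neuron types the count of 3 became 5 with the likelihood-ratio test, 1 with DESeq2, 24 with no filter on low counts (5 after adjustment), 8 with the replicate block and 7 with crossed numbers. The shares of all gene and class or type pairs called in these settings are not given, so these counts are no result about the members. Over all genes in excitatory neurons, 80 calls at p under 0.01 became 236, 164, 277, 131 and 120 in the same order of settings. In inhibitory neurons 71 calls became 152, 58, 76, 161 and 122. The count of non-overlapping shares was 1, 3 without thinning and 0 without nuclei of high Scrublet score. Apart from the fits with fewer libraries or genes, the cause was not tested. The labels name no batch or litter for the replicate numbers, and the block changed no count in the neuron classes. Depth limits *Fosb* and all members in glia, where few UMIs were counted.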
